A study of Mus musculus with 6 samples.

Results

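Of the 33 genes of cholesterol synthesis, uptake, storage and efflux examined here, 0 passed the test between livers of mice dosed with polystyrene microplastics (PS-MP, small particles of a common packaging plastic) and livers of mice given water. The 33 are given by symbol and were matched through the GENCODE M21 mouse annotation to 33 of the 55536 genes in the files. They comprise 18 enzymes of sterol synthesis, 4 genes of the SREBP2 control circuit, 6 genes of cholesterol uptake and transport inside the cell, 2 enzymes that esterify cholesterol and 3 efflux transporters; they do not cover every gene of the pathway. Bulk liver RNA was sequenced from male mice of the inbred strain C57BL/6, aged 6 weeks at the start and carrying no transgene that the labels name. The PS-MP group (3 libraries) took the particles orally, with 0.4 mg stated as the daily amount and 2 occasions a week over 8 weeks, and the water group (3 libraries) was given water on the same schedule. Particle size, feeding state and hour of collection are not given in the sources used here, and no label ties each library to its own mouse, so the spread behind each p-value may be technical.

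Cholesterol is built from acetyl-CoA through mevalonate, isoprenoid and squalene intermediates, and the liver is a main site of this synthesis. The transcription factor SREBP2, encoded by Srebf2, turns on the genes of the pathway when sterols are scarce: SCAP escorts it to the Golgi for cleavage, and the INSIG proteins hold the complex back in the endoplasmic reticulum when sterols are plentiful. In the opposite direction, the oxysterol receptors LXR turn on the transporters ABCA1, ABCG5 and ABCG8, which move cholesterol to lipoproteins in blood and into bile.

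Library totals ran from 13082210 to 16948343 reads, and all 8 hepatocyte markers were detected, summing to 75820 to 94010 CPM (reads scaled to the library total) in PS-MP and 89900 to 98160 CPM in water, lowest in PS-MP replicate 3. PS-MP replicate 3 stood apart by transcripts of another tissue. The 8 forebrain neuron markers summed to 18.1 to 186 CPM in PS-MP libraries, highest in replicate 3, against 9.62 to 11.3 CPM in water libraries; 7 of the 8 lay above water, and Gad1 and Stmn2 were at 0 in all water libraries. The 8 oligodendrocyte and astrocyte markers summed to 341 to 495 CPM in PS-MP and 261 to 314 CPM in water, with 5 of 8 above and Mobp and Mog at 0 in all water libraries. Most of this sum was Slc1a2, at 4743 to 6493 reads in PS-MP. It was also well expressed in every water library, at 3546 to 4955 reads, so the sum is no measure of brain transcripts. Mbp had 22, 21 and 236 reads in PS-MP replicates 1, 2 and 3 and 11 to 18 reads in water, while Aqp4, Gfap and Mog overlapped. Of the 6 brown fat markers, Elovl3, which liver also expresses, was the only one without overlap, at 1986 to 2276 reads in PS-MP and 2842 to 4882 reads in water. The other 5 overlapped and were highest in water replicate 1; Ucp1, for example, had 0, 0 and 68 reads in PS-MP replicates 1, 2 and 3 and 139, 0 and 15 reads in water replicates 1, 2 and 3. Clock genes of the PER phase also separated the groups, at a summed 551.7 to 708.1 CPM in PS-MP and 258.3 to 369.6 CPM in water, with 8 of 9 above water, and 3 of 5 of the BMAL1 phase lay below it. Over all genes tested, 11.1% lay above water and 8.12% below it without overlap. In the limma-trend test described below, 4 of the 9 genes of the PER phase and 1 of the 5 of the BMAL1 phase changed, beside 0.489% of all genes. Summed markers of Kupffer, sinusoidal endothelial, stellate and bile duct cells overlapped between the groups. Single markers without overlap were Cd5l of Kupffer cells (1 of 7), above water, and Ttr and Apoa2 of hepatocytes (2 of 8), below it. The 5 exocrine pancreas markers were low and summed to 4.625 to 5.121 CPM in PS-MP and 5.303 to 6.651 CPM in water, with 1 of 5 below water. A group difference in collection hour cannot be told apart from PS-MP. The part of these transcripts in the values below was not tested, except that values without single libraries are given.

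Values are FPKM (reads scaled by exon length and library total). Each gene was compared by limma-trend on log2(FPKM + 0.5), with Benjamini-Hochberg adjustment over all 13299 genes tested and a threshold of 0.05. All 33 genes passed the filter on low values. Over all genes, 0.489% changed; among the 33, 0 did, and with limma-voom on the reads recovered from FPKM 0 did, where 0.985% of all genes changed. At an unadjusted p under 0.05 there were 9 of the 33 (6 higher and 3 lower in PS-MP), beside 13.1% of all genes (7.49% higher and 5.57% lower), and 8 with limma-voom, beside 13.3%. Without water replicate 1 the limma-trend count was 5 (Nsdhl, Lipa, Stard4, Abcg5 and Abcg8), beside 8.97% of all genes. For 9 of the 33 the groups did not overlap (6 with PS-MP above water, 3 below), beside 19.2% of all genes. The 33 had a median log2 fold change of 0.05, ranging from -0.39 for Lipa to 0.44 for Stard4, and the median over all genes was 0.01. For 25 of the 33 (75.8%, against 82.8% of all genes) the 95% interval of the difference lay inside a 1.5-fold change either way. The 0.5 added to FPKM draws differences and intervals of low genes toward no change, so both shares include genes too low to judge. Fdps, at 0.157 to 0.351 FPKM, is among the 25.

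**Figure D1:**
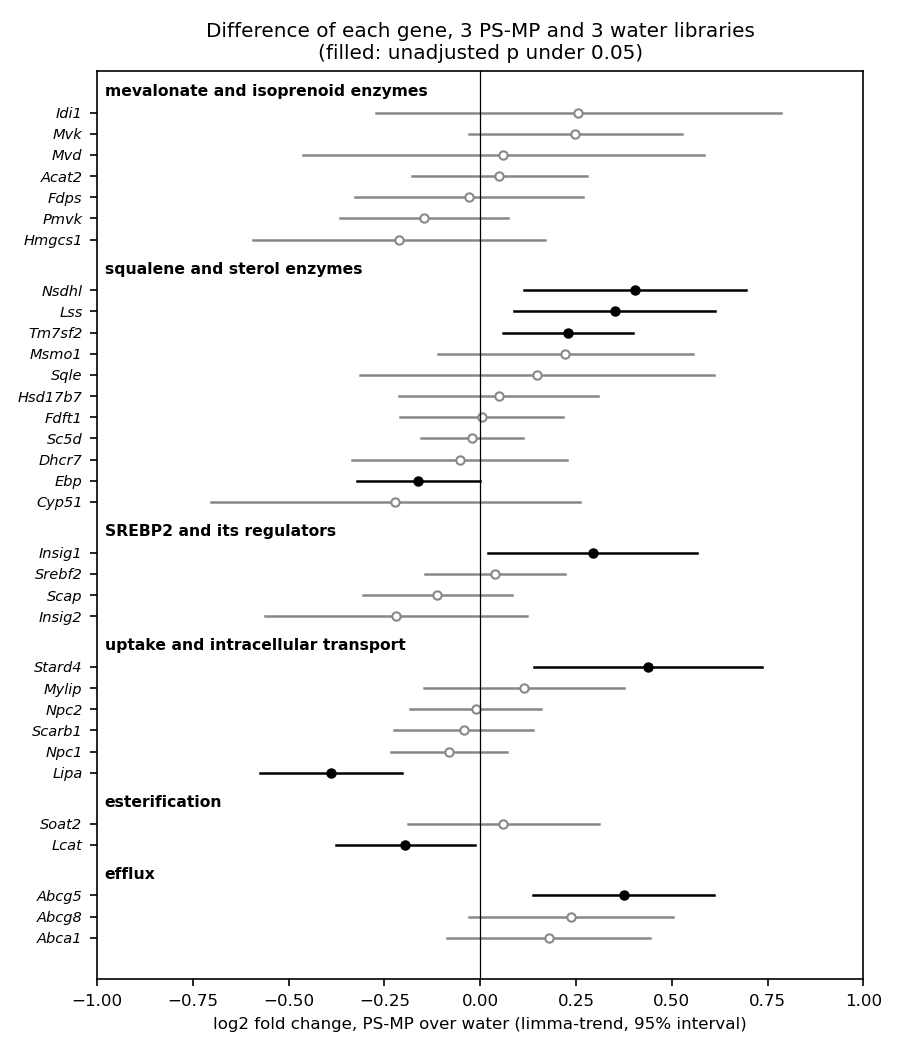
Each row is a gene, grouped by role; the point is its log2 fold change (PS-MP over water, limma-trend, 3 libraries each) and the line its 95% interval. Filled points mark the 9 genes with an unadjusted p under 0.05; all other intervals cross 0, and Lipa and Stard4 lie at the ends of the range.

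The enzymes that turn acetyl-CoA into isoprenoids were spread over a wide range of levels. Hmgcs1, which makes HMG-CoA at the entry of the pathway, ranged from 11.9 to 19.3 FPKM in PS-MP and from 16.6 to 20.2 FPKM in water. The groups overlapped, and PS-MP replicate 3 was the lowest of the 6. Its log2 fold change was -0.21 with a 95% interval from -0.59 to 0.17. Acat2, the cytosolic thiolase that precedes it, averaged 7.80 ± 0.565 FPKM in PS-MP and 7.53 ± 0.805 FPKM in water (SD, n = 3 each). Reads of Acat2 may be split with other genes, since 28.9% of the 100-base windows of its transcripts also occur in transcripts of 2 other genes. These are the related gene Acat3 and, on the other strand, Tcp1, listed at 27.1 to 33.7 FPKM. The share of each was not separated.

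Mvk, the kinase that phosphorylates mevalonate, had 1.46, 1.34 and 1.63 FPKM in PS-MP replicates 1, 2 and 3, against 0.960, 1.30 and 1.24 FPKM in water replicates 1, 2 and 3; this order is kept wherever 3 values are given. All PS-MP values lay above all water values, as for 11.1% of all genes, but by a narrow margin and at a low level of 39 to 65 reads per library (adjusted p = 0.434 by limma-trend). Pmvk, the next kinase, had 4.42, 5.02 and 5.32 FPKM in PS-MP against 5.23, 5.34 and 5.91 FPKM in water, with overlap (adjusted p = 0.555 by limma-trend; log2 fold change -0.15, SE 0.09). Mvd, the decarboxylase that follows, ranged from 0.613 to 1.55 FPKM in PS-MP and from 0.730 to 1.10 FPKM in water. Idi1, which interconverts the isoprenoid units, ranged from 2.54 to 4.38 FPKM in PS-MP and from 2.18 to 3.93 FPKM in water. For both, the groups overlapped.

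Fdps, the farnesyl diphosphate synthase, was listed at only 0.164 to 0.287 FPKM in PS-MP and 0.157 to 0.351 FPKM in water, the lowest level of the 33, resting on 10 to 25 reads per library. In GENCODE M21, 85.9% of its coding bases lie under exons of Gm43738, a gene model on the same strand, which was itself listed at 0 to 0.0238 FPKM. Processed pseudogenes share sequence with it as well. The sources used here do not give how reads in such overlaps were assigned, and the listed value cannot be taken as the level of the Fdps transcript. For Hmgcs1, 35.1% of the coding bases lie under an antisense model (Gm48342, at most 0.0403 FPKM), and 21.9% of the 100-base windows of Idi1 occur in other genes, among them the processed pseudogene Gm35570, listed at 3.03 to 10.8 FPKM. Idi1 reads may therefore be split between gene models.

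**Figure D2:**
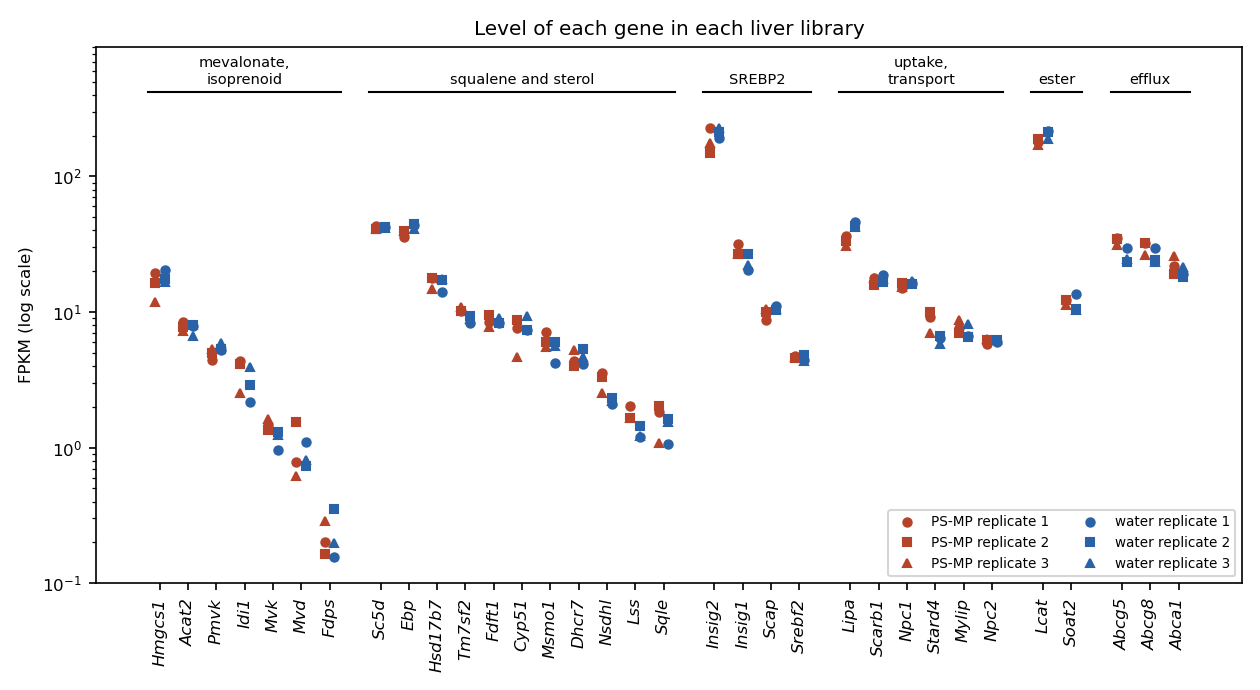
FPKM of the 33 genes on a log axis in the 3 PS-MP (red) and 3 water (blue) libraries, ordered by mean level within each role; the symbol shape gives the replicate. Insig2 and Lcat are the highest and Fdps the lowest, and the difference between genes far exceeds that between groups.

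Among the 11 enzymes from squalene to cholesterol, Nsdhl, Lss and Tm7sf2 lay above water and Ebp below it in all 3 PS-MP libraries. That is 4 of 11 without overlap (36.4%), beside 19.2% of all genes (11.1% above and 8.12% below), and 0 passed the test over all genes. Nsdhl, a dehydrogenase that helps strip methyl groups from the sterol ring (chromosome X), had 3.54, 3.30 and 2.51 FPKM in PS-MP against 2.1, 2.32 and 2.22 FPKM in water. On the fitted scale of log2(FPKM + 0.5), which is smaller than the ratio of FPKM for low genes, the difference was 1.32-fold. Its 95% interval ran from 1.08 to 1.62 (adjusted p = 0.239 by limma-trend). The log2 fold change was 0.40, against 0.47 by limma-voom. Lss, the lanosterol synthase that closes the ring system (chromosome 10), had 2.03, 1.66 and 1.65 FPKM in PS-MP against 1.196, 1.44 and 1.21 FPKM in water. On the same fitted scale it was 1.28-fold higher (interval 1.06 to 1.53, adjusted p = 0.257 by limma-trend). The log2 fold change was 0.35, against 0.46 by limma-voom. For both genes the lowest PS-MP value stood close above the highest water value.

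Tm7sf2, a sterol reductase, had 10.2, 10.3 and 10.9 FPKM in PS-MP against 8.33, 9.33 and 8.85 FPKM in water, 1.17-fold (adjusted p = 0.255 by limma-trend; SE 0.07 on the log2 scale). It shares 12.1% of its exon bases with Vps51 on the same strand. Ebp, the sterol isomerase, had 35.8, 39.7 and 39.8 FPKM in PS-MP against 43.9, 44.2 and 40.9 FPKM in water, with a log2 fold change of -0.16 (adjusted p = 0.379 by limma-trend; SE 0.07).

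The other 7 enzymes of this stretch overlapped between the groups. Sqle, the squalene epoxidase that is a control point of the pathway, ranged from 1.09 to 2.03 FPKM in PS-MP and from 1.06 to 1.64 FPKM in water. Cyp51, which removes a methyl group from lanosterol, ranged from 4.66 to 8.73 FPKM in PS-MP and from 7.40 to 9.36 FPKM in water, again with PS-MP replicate 3 lowest. Sc5d, a desaturase, was the most even of the enzymes, at 41.5 ± 1.34 FPKM in PS-MP and 42.1 ± 0.337 FPKM in water (SD, n = 3 each). Dhcr7, which reduces 7-dehydrocholesterol to cholesterol, averaged 4.52 ± 0.619 FPKM in PS-MP and 4.71 ± 0.571 FPKM in water. Msmo1, the methylsterol oxidase, averaged 6.22 ± 0.792 FPKM in PS-MP and 5.29 ± 0.973 FPKM in water. Hsd17b7, a ketoreductase of the same demethylation, averaged 16.7 ± 1.77 FPKM in PS-MP and 16.2 ± 1.95 FPKM in water. Fdft1, the squalene synthase, averaged 8.57 ± 0.919 FPKM in PS-MP and 8.51 ± 0.432 FPKM in water (SD, n = 3 each throughout). On the other strand, 18.3% of its exon bases lie under Ctsb, listed at 52.7 to 59.0 FPKM, and without a stated strand reads of the pair cannot be told apart there.

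Replicates within a group differed over the enzymes as a set. PS-MP replicate 3 was the lowest of its group for 11 of the 18 enzymes (61.1%), against 32.0% of all genes tested. Water replicate 1 was the lowest of its group for 13 of the 18 (72.2%), against 29.2% of all genes. These are the libraries with the most forebrain and the most brown fat transcripts, and the part of those transcripts in this order was not tested. The median log2 fold change of the 18 enzymes was 0.05; it was 0.12 without PS-MP replicate 3 and -0.0049, the other direction, without water replicate 1.

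The promoters of the enzymes share a short motif. RefSeq promoter windows on GRCm38.p6 (250 bases before to 50 after the start site) were found for 26 of the 33 genes, including 15 of the 18 enzymes. The CCAAT box, bound by NF-Y, a partner of SREBP2 at sterol promoters, was sought as CCAAT on both strands and occurred in 14 of the 15 enzymes and in 23 of the 26 genes (88.5%), against 41.1% of the 27025 genes in the table. The sequence TCACNCCAC, a form of the sterol regulatory element, occurred in 1 of the 26, Hmgcs1, and in 1.44% of all genes. The E-box CACGTG occurred in 6 of the 26 (23.1%; Abca1, Dhcr7, Hsd17b7, Insig1, Sc5d and Scap) and in 8.09% of all genes. These matches are descriptions of the letters in the windows. The windows of Hmgcs1 (chr13:119690101-119690400, plus strand), which holds the sterol element beside CCAAT boxes, and of Nsdhl (chrX:72918271-72918570, plus strand) and Lss (chr10:76531355-76531654, plus strand), the enzymes with the largest positive fold changes, are given 5′ to 3′ with the matches in capitals (ATTGG is CCAAT on the other strand).
Hmgcs1: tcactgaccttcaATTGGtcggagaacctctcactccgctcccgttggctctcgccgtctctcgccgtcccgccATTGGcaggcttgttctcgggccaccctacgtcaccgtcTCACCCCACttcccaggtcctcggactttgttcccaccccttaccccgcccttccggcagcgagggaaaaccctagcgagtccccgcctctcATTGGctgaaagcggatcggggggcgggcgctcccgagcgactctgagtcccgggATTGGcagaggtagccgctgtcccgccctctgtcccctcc
Nsdhl: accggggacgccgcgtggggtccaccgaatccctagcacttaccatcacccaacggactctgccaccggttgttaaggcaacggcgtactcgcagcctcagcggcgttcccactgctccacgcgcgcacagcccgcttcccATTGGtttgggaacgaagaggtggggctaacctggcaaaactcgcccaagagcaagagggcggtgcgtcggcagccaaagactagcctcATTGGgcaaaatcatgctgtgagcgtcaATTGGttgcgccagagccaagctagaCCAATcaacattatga
Lss: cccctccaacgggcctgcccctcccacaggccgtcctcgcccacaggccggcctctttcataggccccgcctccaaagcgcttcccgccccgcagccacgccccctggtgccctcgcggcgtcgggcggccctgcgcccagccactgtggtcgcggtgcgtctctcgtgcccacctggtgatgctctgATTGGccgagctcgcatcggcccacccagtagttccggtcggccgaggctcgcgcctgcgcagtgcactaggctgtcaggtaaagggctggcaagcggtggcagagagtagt

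In Hmgcs1 the sterol element begins 137 bases before the start site and lies between CCAAT boxes at 176 and 45 bases before it. Nsdhl and Hmgcs1 each hold 4 CCAAT boxes and Lss holds 1. No match overlaps another.

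In the SREBP2 circuit the RNA of the factor itself was even, while the protein and its cleavage were not measured. Srebf2 had 4.74, 4.59 and 4.67 FPKM in PS-MP against 4.45, 4.82 and 4.32 FPKM in water, with a 95% interval of the log2 fold change from -0.14 to 0.22. Scap, its escort, had 8.80, 10.03 and 10.5 FPKM in PS-MP against 10.99, 10.3 and 10.5 FPKM in water (log2 fold change -0.11, standard error 0.08); 20.5% of its coding bases lie under a model on the other strand. For both genes the groups overlapped.

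The pair of INSIG genes differed in level. Insig2 (chromosome 1), the form known to be abundant in liver and not driven by SREBP, was the most highly expressed of the 33, with 226, 148 and 176 FPKM in PS-MP against 192, 212 and 228 FPKM in water. The groups overlapped, through PS-MP replicate 1, and the log2 fold change was -0.22 (adjusted p = 0.57 by limma-trend; SE 0.15). Single libraries moved it, to -0.38 without PS-MP replicate 1 and -0.08 without PS-MP replicate 2. Insig1 (chromosome 5), itself an SREBP target, had 31.9, 26.7 and 26.6 FPKM in PS-MP against 20.3, 27.0 and 22.2 FPKM in water, overlapping through water replicate 2 (1.23-fold, adjusted p = 0.352 by limma-trend; SE 0.12 on the log2 scale). The ratio of Insig2 to Insig1 FPKM was 7.08, 5.55 and 6.62 in PS-MP libraries and 9.46, 7.87 and 10.3 in water libraries. All 3 PS-MP ratios lay below the water ratios; this ratio was chosen after the values were seen and was not tested. The Insig1 promoter window (chr5:28071162-28071461, plus strand) is shown because it holds both a CCAAT box and an E-box, in capitals.
Insig1: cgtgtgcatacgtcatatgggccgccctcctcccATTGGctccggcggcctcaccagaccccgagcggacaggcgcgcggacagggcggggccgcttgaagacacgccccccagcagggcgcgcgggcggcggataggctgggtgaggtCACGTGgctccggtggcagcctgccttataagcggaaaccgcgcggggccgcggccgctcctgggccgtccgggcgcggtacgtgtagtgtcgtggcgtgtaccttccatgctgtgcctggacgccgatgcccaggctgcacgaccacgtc

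Of the 6 genes of uptake and transport inside the cell, Lipa lay below water and Stard4 above it in all 3 PS-MP libraries. That is 2 of 6 without overlap (33.3%), beside 19.2% of all genes, and 0 passed the test. Lipa, the lysosomal acid lipase that frees cholesterol from lipoprotein esters (chr19:34492318-34527474 in GENCODE M21 on GRCm38), had 36.4, 33.3 and 30.5 FPKM in PS-MP against 46.2, 42.9 and 42.3 FPKM in water. Every PS-MP library lay below every water library, as for 8.12% of all genes. The log2 fold change was -0.39 (standard error 0.08, 95% interval -0.58 to -0.20), and it did not pass the test (adjusted p = 0.107 by limma-trend and 0.0589 by limma-voom). Stard4, an SREBP2 target that carries sterols between membranes, had 9.24, 10.04 and 7.03 FPKM in PS-MP against 6.39, 6.62 and 5.83 FPKM in water. It was 1.36-fold higher (95% interval 1.10 to 1.67; adjusted p = 0.22 by limma-trend) and PS-MP replicate 3 was the closest to water; without that library its adjusted p by limma-trend was 0.0781.

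The remaining 4 overlapped. Npc1 and Npc2, which pass the freed cholesterol out of the lysosome, averaged 15.5 ± 0.699 and 6.09 ± 0.279 FPKM in PS-MP and 16.5 ± 0.481 and 6.14 ± 0.16 FPKM in water (SD, n = 3 each). Scarb1, the receptor that takes up cholesterol ester from HDL, averaged 17.1 ± 1.17 FPKM in PS-MP and 17.6 ± 1.07 FPKM in water. Mylip, an LXR target that marks lipoprotein receptors for degradation, averaged 7.78 ± 0.883 FPKM in PS-MP and 7.15 ± 0.893 FPKM in water.

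Of the esterifying enzymes, Lcat, which liver secretes to esterify cholesterol on HDL in plasma, had 179.7, 189 and 170.4 FPKM in PS-MP against 217, 212 and 189 FPKM in water. PS-MP replicate 2 and water replicate 3 were nearly level at the edge of the 2 groups, which did not overlap (adjusted p = 0.351 by limma-trend; log2 fold change -0.20, SE 0.08). Soat2, which esterifies cholesterol inside hepatocytes, had 12.2, 12.3 and 11.3 FPKM in PS-MP against 13.5, 10.5 and 10.4 FPKM in water, with PS-MP inside the water range. In bulk liver, fewer cells of a type and less RNA per cell cannot be told apart for any of these genes.

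The 3 efflux genes all had positive fold changes, beside 53.7% of all genes, and 0 passed the test. Abcg5 (chr17:84658234-84683011), 1 subunit of the transporter that exports sterols into bile, had 35.3, 34.3 and 31.3 FPKM in PS-MP against 29.9, 23.2 and 24.8 FPKM in water. All PS-MP values lay above all water values, as for 11.1% of all genes, but PS-MP replicate 3 stood close above water replicate 1. The fold was 1.30 (95% interval 1.10 to 1.53, adjusted p = 0.187 by limma-trend). Its partner subunit Abcg8 had 32.0, 32.4 and 26.5 FPKM in PS-MP against 29.7, 24.0 and 23.4 FPKM in water, overlapping through water replicate 1 and PS-MP replicate 3 (1.18-fold, interval 0.981 to 1.42; adjusted p = 0.435 by limma-trend). Abca1, which loads cholesterol onto nascent HDL, had 22.0, 19.1 and 25.7 FPKM in PS-MP against 19.1, 18.1 and 21.4 FPKM in water, with overlap (1.13-fold, interval 0.941 to 1.36). Its log2 fold change of 0.18 was 0.07 without PS-MP replicate 3 and 0.28 without PS-MP replicate 2. For each of Abcg5 and Abcg8, replicate 1 was the highest of the water libraries.

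**Figure D3:**
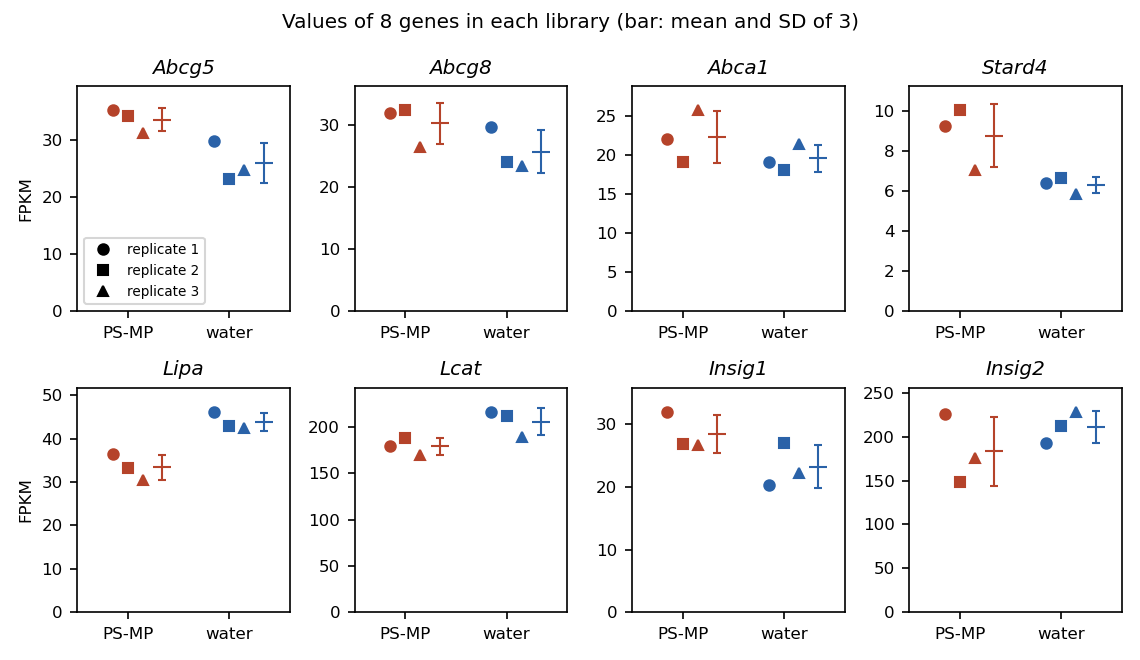
FPKM of 8 genes in each library (axis from 0); symbols are replicates and bars the mean and SD of 3. PS-MP lies above water without overlap for Abcg5 and Stard4 and below it for Lipa and Lcat, while Abcg8, Abca1, Insig1 and Insig2 overlap.

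Abcg5 and Abcg8 lie on opposite strands. RefSeq lists 2 start sites for Abcg8, and 1 of them lies 110 bases from the Abcg5 start site, with transcription running apart. The promoter windows of these 2 sites share 209 bases. In GENCODE M21 the Abcg8 model begins at 84676302, inside the Abcg5 model, and the models share 82 exon bases (3.02% of Abcg5 and 2.19% of Abcg8). Their values need not be independent. The Abcg5 window (chr17:84682962-84683261, minus strand) is shown because it holds the Abcg5 start site and the nearby Abcg8 start site. Its single CCAAT match, in capitals, begins at the first base of the Abcg5 transcript.
Abcg5: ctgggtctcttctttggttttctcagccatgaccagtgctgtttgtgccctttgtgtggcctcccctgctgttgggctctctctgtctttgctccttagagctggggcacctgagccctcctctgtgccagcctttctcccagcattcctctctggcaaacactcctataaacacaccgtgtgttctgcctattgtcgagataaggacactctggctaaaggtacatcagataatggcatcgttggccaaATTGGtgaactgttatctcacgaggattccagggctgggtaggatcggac

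Synthesis was then set against efflux. Enzymes had a median log2 fold change of 0.05 (18 genes, 11 positive and 7 negative) and efflux genes one of 0.24 (3 genes, 3 positive), a difference of -0.19. The median log2 fold change over all genes was 0.01, with 53.7% positive. With 3 genes, the efflux median is the value of Abcg8. In single libraries, the median log2 level of the enzymes relative to their water means was 0.12, 0.14 and -0.04 in PS-MP replicates 1, 2 and 3, against -0.07, 0.07 and 0.00 in water replicates 1, 2 and 3. The median of the efflux genes was 0.32, 0.34 and 0.27 in PS-MP, against 0.21, -0.10 and -0.06 in water. Synthesis minus efflux was -0.20, -0.20 and -0.32 in PS-MP, against -0.28, 0.17 and 0.06 in water. Water replicate 1 lay within the PS-MP values, so the groups overlapped in this balance. The difference of the medians was -0.35 without water replicate 1 and -0.11 without water replicate 2. The balance rests on only 3 efflux genes and was not tested.

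**Figure D4:**
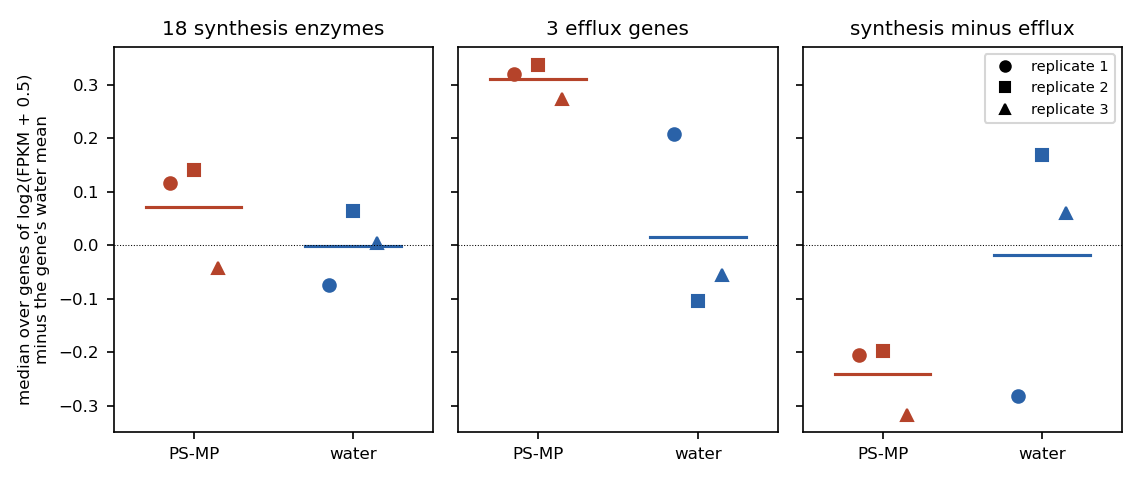
Each point is a library; the y axis is the median over genes of log2(FPKM + 0.5) minus the gene's water mean, for the 18 enzymes, the 3 efflux genes and their difference, and the bar is the mean of 3 libraries. The efflux medians of PS-MP lie above those of water, the enzyme medians overlap, and water replicate 1 falls among the PS-MP libraries in the difference.

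Other genes of the pathway were taken from 3 lists. In a list of sterol sensing and LXR genes 0 of 13 changed (0.489% of all genes did). An unadjusted p under 0.05 by limma-trend was found for 6 of the 13, with 4 higher and 2 lower in PS-MP, beside 7.49% and 5.57% of all genes. The same 6 were without overlap between the groups (46.2% of the 13, with 4 above water and 2 below), beside 19.2% of all genes. Rnf145, a sterol-responsive ubiquitin ligase, averaged 2.83 ± 0.109 FPKM in PS-MP and 2.104 ± 0.135 FPKM in water, and Erlin1, a membrane protein of the endoplasmic reticulum, 7.41 ± 0.46 FPKM in PS-MP and 6.00 ± 0.171 FPKM in water (SD, n = 3 each; adjusted p = 0.164 and 0.188 by limma-trend). The other 4 of the 6 are named after their values were seen. Nr1h3, which encodes LXR alpha, averaged 24.4 ± 0.565 FPKM in PS-MP and 27.5 ± 1.77 FPKM in water. Erlin2, the paralogue of Erlin1, averaged 6.65 ± 0.441 FPKM in PS-MP and 8.05 ± 0.869 FPKM in water (SD, n = 3 each). Rxra, the partner of LXR, averaged 78.9 ± 2.76 FPKM in PS-MP and 66.7 ± 4.67 FPKM in water. Srebf1, the SREBP gene of fatty acid synthesis, had 4.36, 3.99 and 6.64 FPKM in PS-MP against 3.202, 3.10 and 3.19 FPKM in water (adjusted p = 0.229 by limma-trend).

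In a list of isoprenoid and SREBP target genes 1 of 18 changed, beside 0.489% of all genes, and 3 had an unadjusted p under 0.05 (2 higher, 1 lower), beside 13.1%. Por, the reductase that supplies electrons to Cyp51, Sqle and other enzymes, had 180.0, 184 and 174.5 FPKM in PS-MP against 107, 125 and 124 FPKM in water (adjusted p = 0.0358 by limma-trend; log2 fold change 0.60, SE 0.08). Without water replicate 3, 0 of all genes passed, Por included. Aacs, which activates acetoacetate for lipid synthesis, had 2.30, 2.13 and 4.45 FPKM in PS-MP against 1.23, 1.36 and 1.197 FPKM in water, and did not pass (adjusted p = 0.153 by limma-trend; log2 fold change 0.91, SE 0.23); its highest value was in PS-MP replicate 3. In a list of sterol transport, storage and efflux genes 0 of 19 changed and 1 had an unadjusted p under 0.05 (13.1% of all genes did), Lipc, the hepatic lipase, at 36.5 ± 3.78 FPKM in PS-MP and 43.5 ± 4.63 FPKM in water (SD, n = 3 each). Pltp, a phospholipid transfer protein, followed at 6.25 ± 0.637 FPKM in PS-MP and 5.41 ± 0.515 FPKM in water. Npc1l1, an intestinal cholesterol transporter in mouse, was under the filter on low values with 0 reads in PS-MP and at most 0.0442 FPKM in water, and Faxdc2 was not matched by symbol.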

How the data were processed

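Liver RNA of 6 libraries (3 PS-MP, 3 water; groups and replicate numbers from the labels) was measured by RNA sequencing. The deposited values are FPKM per gene, computed by the authors. CASAVA, FastQC, MultiQC, Trimmomatic 0.38, HISAT2 2.1.0, featureCounts 1.6.0 and DESeq2 1.22.1 were used, per the submitters' processing notes. They name GRCh38, whereas all 55536 identifiers belong to mouse GENCODE M21 (GRCm38). Strand use and read assignment in overlaps are not given in the sources used here.

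FPKM times merged exon length gave whole reads within 0.001 for 100% of genes above 0 in each library; these reads give depth, CPM and the filter on low values (0.664 CPM or more in 3 libraries, which is 10 reads at the median depth, and 15 reads in all). Limma 3.58.1 in R 4.3.3 was fitted as limma-trend on log2(FPKM + 0.5) with group as the only term, a scale that understates changes of low genes, and was tested on simulated data. The members and gene lists were chosen with earlier results of these data known. All 33 genes are described; values are given in full for those with an unadjusted p under 0.05, without overlap between groups, with the 2 smallest p of each role, or in the SREBP2 circuit or efflux. Alternatives were pseudocounts of 0.1 and 1, no filter, CPM of at least 1 in 3 libraries, median-of-ratios scaling, limma-voom, a replicate block and left-out libraries.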

Additional observations from a re-analysis of the deposited data

How the results depend on the processing

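Under 14 alternatives, 0 of the 33 genes changed in each (32 were tested with CPM of at least 1, which leaves out Fdps); with limma-trend and limma-voom the smallest adjusted p was 0.0589, for Lipa with limma-voom. Of 238 fold changes of the 17 genes that the naming rule takes, 237 kept direction and side of the threshold. The exception was Soat2, at 0.06 in the reported fit, -0.0013 without water replicate 3 and 0.22 without both water replicate 1 and PS-MP replicate 3. Leaving out a single library moved the fold change by over 1.5 times for Mvk, Pmvk, Srebf2, Scap, Insig2, Soat2 and Abca1, none of which passed the test. The number with an unadjusted p under 0.05 was 5 to 10 with single libraries left out, lowest without water replicate 1. The efflux median was 0.19 to 0.34 without single libraries and 0.44 without both of those libraries, which leaves 2 a group. Over all genes, 65 changed in the reported fit, 131 with limma-voom, 0 with no filter on low values (26854 genes tested, 2064 with an unadjusted p under 0.05), 2 without both of those libraries, and 0 to 36 without single libraries (0 without water replicate 3, where 1641 had an unadjusted p under 0.05, 2 without PS-MP replicate 2 and 3 without water replicate 1). Same-numbered libraries did not deviate together (correlations of their deviations -0.04, 0.05 and -0.01), which cannot show whether the replicate numbers stand for pairs. With the replicate block, 23 genes and 0 of the 33 changed. The cause of these differences was not tested. Fdps, Mvd and Mvk rest on 10 to 65 reads per library, and the part of depth in their error was not tested.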
